A study of Mus musculus with 24 samples.

Results

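The cytosolic ribosomal protein genes were taken as the protein-coding genes whose symbol starts with Rpl or Rps followed by a digit, together with Rplp0, Rplp1, Rplp2 and Rpsa, leaving out the Rps6k kinases. Of 53801 genes in the count table, 92 met this rule and 86 of those had enough reads to be tested, among 12963 genes tested in all. Of the 86, 49 encode proteins or paralogs of the large subunit and 32 of the small subunit. A further 3 (Rpl10-ps3, Rpl9-ps6 and Rps27rt) are copies annotated as coding, and 2 (Rps19bp1 and Rpl7l1) carry a ribosomal symbol without being subunits. The 6 genes not tested were Rpl39l, Rpl10l and Rps12-ps3, with 0 counts in all 24 libraries, and Rpl36a-ps1, Rpl9-ps1 and Rpl36-ps4, with 33, 9 and 1 counts over all libraries.

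RNA sequencing was done on ER-Hoxb8 cells, a murine granulocyte-monocyte progenitor line from C57BL/6 mice held in an immature state by an estrogen-dependent Hoxb8 protein. The cells had been transduced with a lentivirus carrying human WT-ERG, the P199L-ERG variant or the empty backbone (BB), with ERG driven by the human PGK promoter, and were sorted for GFP into stable lines, with no separate transductions described for the replicates. After beta-estradiol was washed out, each line was treated with 5 µM BRD3308, an inhibitor of the histone deacetylase HDAC3, or with its solvent DMSO for 36 h. The dose and the time are those of the methods, and a lower dose and a longer time are mentioned elsewhere. Each of the 6 groups held 4 libraries from separate experiments, so all groups shared the ER-Hoxb8 protein and the estrogen withdrawal, and construct cannot be told apart from line. Libraries held 12510036 to 16280939 counts. All 10 granulocyte-monocyte progenitor markers examined were present in each library, and the erythroid genes Hbb-bs, Hbb-bt and Hba-a1 were at 0 in all 24. The summed level of the 5 lymphocyte markers was 1.89 to 3.94 CPM (counts per 1000000 counts of the TMM-scaled library) over the DMSO libraries and 10.6 to 18.4 over the BRD3308 libraries, nearly all of it from Cd79a. The 3 megakaryocyte markers summed to 9.01 to 13.7 CPM in DMSO and 23.2 to 39.4 CPM in BRD3308. Their part in the results below was not tested.

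Ribosomal proteins assemble with ribosomal RNA into a small subunit, which reads the messenger RNA, and a large subunit, which joins amino acids. Their messages start with a run of pyrimidines, the terminal oligopyrimidine (TOP) tract, through which mTOR signalling and the RNA-binding protein Larp1 govern their translation and stability. Blood progenitors are sensitive to the dose of these proteins, and loss of a single copy of several of them causes the inherited red cell failure Diamond-Blackfan anemia.

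Some of the start sites show the features for which these genes are known. RefSeq promoter windows (GRCm38.p6) were at hand for 64 of the 86 genes, in 76 windows. Within 15 bases on either side of the annotated start, a run of 8 or more C or T bases stood in 36.8% of the member windows and in 12% of all 32851 promoter windows. The start windows of 4 members with such a run are set here beside Rps19bp1, which is not a subunit and lacks one. A run of this length was absent in 37 of the 64 members, among them the subunit genes Rps3 and Rpl12. They are printed 5′ to 3′ in the sense of the gene, with the longest C or T run in capitals.
Rpl15: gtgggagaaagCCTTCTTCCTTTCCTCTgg
Rpl27a: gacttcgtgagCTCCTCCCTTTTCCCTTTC
Rps10: gcgccgcgcacgCCCCTTCCTTTCCagcct
Rps6: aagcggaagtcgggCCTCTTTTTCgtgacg
Rps19bp1: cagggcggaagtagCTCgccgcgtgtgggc
These windows lie at chr14:18270972-18271001 (minus strand) for Rpl15, chr7:109519180-109519209 (plus) for Rpl27a, chr17:27635230-27635259 (minus) for Rps10, chr4:86857353-86857382 (minus) for Rps6 and chr15:80264292-80264321 (minus) for Rps19bp1. The run was 17 bases long in Rpl15, 19 in Rpl27a and 3 in Rps19bp1.

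Since ERG is an ETS factor and ETS proteins bind around a GGAA core, the same windows, from 250 bases before to 50 after the start, were searched on both strands for the letters CCGGAAG. They stood in 34.2% of the member windows and in 8.86% of all windows. The shorter CCGGAA, which also counts every CCGGAAG, stood in 47.4% and 14.9%, and TATAAA in 9.21% and 13.6%. The motif and its flanks are shown for 4 members, with the motif, or its reverse complement CTTCCGG, in capitals.
Rpl31: ctccccgtgacCCGGAAGttgtacggctac
Rpl38: gggttaaccgtCCGGAAGcggaagcctcgt
Rps3a1: gattcttaaagCCGGAAGggcgaaagagca
Rps7: tttcagaagagCTTCCGGtttccacccacc
They lie at chr1:39367848-39367877 (plus strand), chr11:114668549-114668578 (plus), chr3:86142659-86142688 (minus) and chr12:28635949-28635978 (minus), in that order. In DMSO, the 25 members with CCGGAAG in a window had a median log2 fold change of 0.17 in WT-ERG cells against BB cells, and the 39 with windows but no CCGGAAG had 0.15. For P199L-ERG against BB these medians were 0.24 and 0.23. The medians for a C or T run of 8 or more (27 members) and for shorter runs (37 members) were 0.17 and 0.16 in WT-ERG against BB cells, and 0.16 and 0.12 for BRD3308 in BB cells. In P199L-ERG against BB cells the medians for the runs were 0.27 and 0.21. These are descriptions of genes that share their libraries, and no test was made.

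Reads that fit several genes limit how these genes can be compared with each other. Ribosomal proteins have many processed copies in the genome, and 83 of the 86 members shared at least some stretch of 60 bases of their principal transcript with a transcript of another gene. The median member had 45.6% of such windows to itself, and Rps27 had 1.40%. In CPM per kilobase of transcript, a level on the linear scale, the median was 37.8 in the 24 members with at most 25% unshared windows, 199.3 in the 46 members above that and up to 75%, and 381 in the 16 members over 75%. The rank correlation of this level with the unshared share was 0.49 over the 86 genes, which share their libraries and their depth. With the level taken per unshared window it was 0.09. The highest levels per length were those of Rpl4, a protein of the peptide exit tunnel, with 1673 CPM per kilobase, Rpl8 with 1623 and the stalk protein gene Rplp1 with 1497. The lowest were those of Rpl10-ps3 with 1.31, the muscle paralog Rpl3l with 1.42 and Rpl23a with 1.71, where Rpl23a had 16.6% unshared windows and Rpl3l had 100%. How reads with several matches were counted is not given in the sources used here. Exons of 39 members also overlap exons of another gene, on the opposite strand in 19 of them, among which are Rpl15, Rpl31, Rpl12, Rpl28 and Rps2, and since the strand setting is not given either, reads of such partners cannot be told apart.

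**Figure D1:**
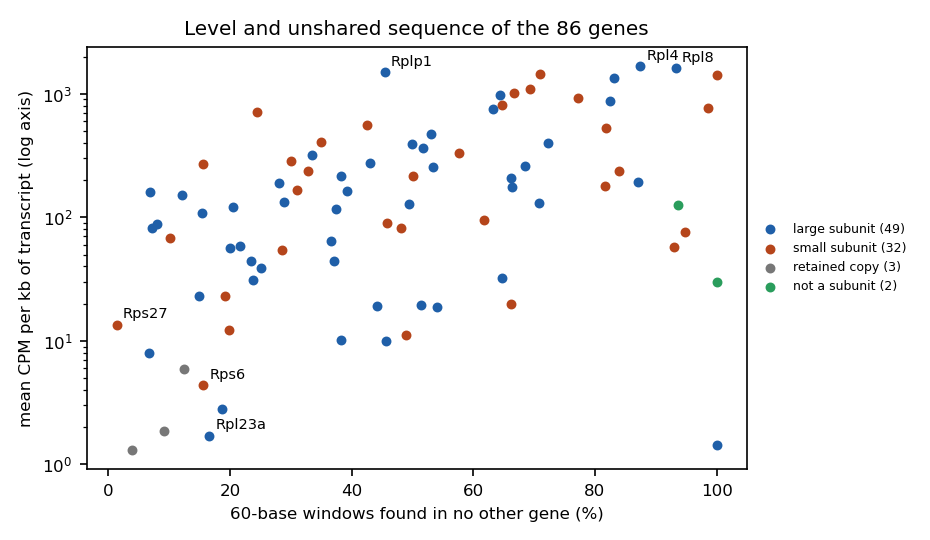
Mean level in CPM per kilobase of transcript (log axis) of the 86 genes against the share of their 60-base windows found in no other gene (%), colored by subunit. Median levels were 37.8, 199.3 and 381 CPM per kilobase in the classes up to 25%, over 25 to 75% and over 75%.

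The members together took 1.99% to 2.75% of the counts of a library. In DMSO-treated BB cells the share was 2.02% ± 0.0209 (SD, n = 4), and each of its libraries lay below every library of the other 5 groups. It was 2.22% ± 0.0537 in BB cells with BRD3308, 2.26% ± 0.139 and 2.37% ± 0.0661 in WT-ERG cells with DMSO and BRD3308, and 2.33% ± 0.296 and 2.29% ± 0.0288 in P199L-ERG cells. The large SD of the DMSO-treated P199L-ERG group came from replicate 4, at 2.75% against 2.09%, 2.17% and 2.30% in the other 3 libraries. Replicate 4 of DMSO-treated WT-ERG cells held 2.46% against 2.14%, 2.19% and 2.25%.

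In both of these libraries shorter genes tended to lie above the group mean. In replicate 4 of DMSO-treated WT-ERG cells 82 of 86 members lay above their group mean, by a median of 0.16 on the log2 scale, and in replicate 4 of DMSO-treated P199L-ERG cells 76 of 86 did, by a median of 0.29. Over 12950 genes that share these libraries, a gene's deviation from its group mean correlated with log2 exon length at -0.24 in the first and -0.29 in the second. The other 22 libraries gave values from -0.10 to 0.24. The sign went with the replicate number. Replicate 1 gave 0.10 to 0.24 over the 6 groups, and replicate 4 was below 0 in all 6, from -0.02 to -0.29. The cause of this order was not tested. The value of 0.24 was that of replicate 1 of DMSO-treated P199L-ERG cells, where 5 of 86 members lay above the group mean and the median deviation was -0.16. Deviations are taken from the mean of the group's own 4 libraries, so a high replicate 4 also lowers the others. A negative median deviation of replicate 1 was nevertheless seen in each of the 6 groups, from -0.04 in BRD3308-treated P199L-ERG cells to this -0.16. In BRD3308-treated BB cells, replicate 4 deviated by only 0.04, and replicate 1 had 7 of 86 members above the mean. By share of counts, replicate 1 of DMSO-treated P199L-ERG cells held 2.09%, nearer to replicates 2 and 3 (2.17% and 2.30%) than to replicate 4 (2.75%). The median member had 1736.5 bases of annotated exon and the median gene tested 4016. Results are given for all 24 libraries and again for the 22 without the 2 replicate-4 libraries, and every replicate 1 is among the 22.

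**Figure D2:**
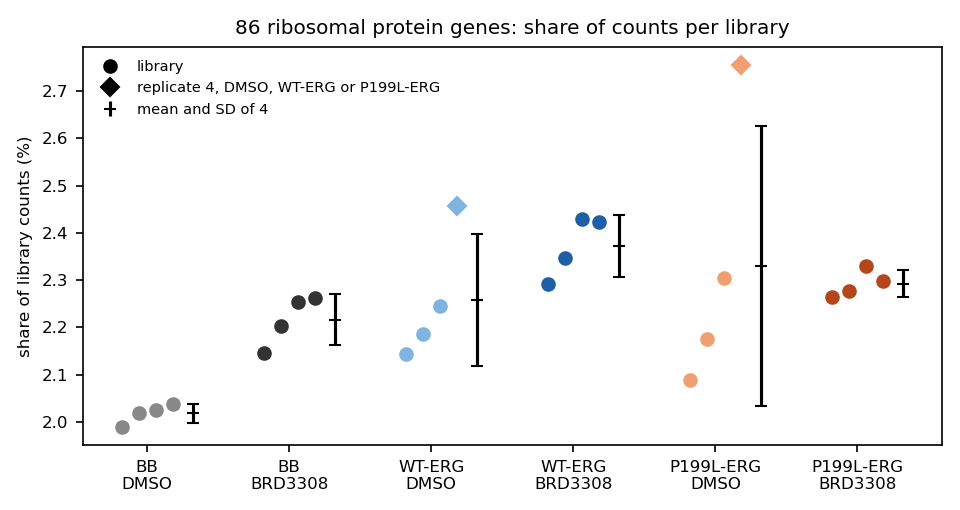
Share of library counts (%) held by the 86 genes, with 1 point per library in each of the 6 groups, diamonds for replicate 4 of the DMSO-treated ERG groups, and the mean and SD of 4 libraries beside each group. DMSO-treated BB cells sit lowest, at 2.02%, and the diamonds stand highest in their groups, at 2.46% and 2.75%.

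In BB cells some ribosomal protein genes rose with BRD3308, by small steps. At an adjusted p under 0.05 in edgeR's quasi-likelihood test, 27 of 86 members rose and 3 fell. Of all genes tested, 24% rose and 22% fell, so the share of members that rose was not far above that of all genes. Their median log2 fold change was 0.15, against 0.01 over all genes tested, and 68 of 86 values were above 0. Of the large subunit members 18 of 49 rose and none fell, and of the small subunit members 8 of 32 rose and 2 fell. Without the 2 replicate-4 libraries, which are in neither of these groups and bear on them through the shared estimate of the spread, 47 members rose and 5 fell, against 26.1% and 25.4% of all genes.

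The smallest p was that of Rpl15, a large subunit protein (ENSMUSG00000012405, GRCm38 chr14:18267823-18271391, minus strand). Its level was 25.8, 25.7, 25.5 and 24.7 CPM in the DMSO libraries and 31.0, 34.4, 31.7 and 34.0 CPM with BRD3308, with no overlap. The log2 fold change was 0.37 ± 0.05 (SE, adjusted p = 8.5e-07). Rps14, a protein of the small subunit platform whose human gene lies in the region lost in the 5q- syndrome, measured 452, 462, 496 and 498 CPM in DMSO and 598, 627, 644 and 648 CPM with BRD3308. All 4 treated libraries were above all 4 controls, with a log2 fold change of 0.40 ± 0.08 (adjusted p = 0.0003). Rpl7, a large subunit protein (ENSMUSG00000043716, GRCm38 chr1:16101295-16104662, minus strand), was at 364, 359, 379 and 366 CPM in DMSO and at 431, 422, 435 and 460.3 CPM with BRD3308. The groups did not overlap, and its log2 fold change was 0.25 ± 0.04 (adjusted p = 5.1e-06). Rpl17 rose by 0.30 ± 0.06 (adjusted p = 0.00038).

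The members that fell in BB cells were Rps19bp1, Rps6 and Rps29. Rps19bp1 (ENSMUSG00000051518, GRCm38 chr15:80260615-80264315, minus strand) encodes a nucleolar protein that binds Rps19 and is not part of the ribosome. Its level was 28.2, 25.1, 25.8 and 25.2 CPM in DMSO and 20.2, 21.1, 22.3 and 20.5 CPM with BRD3308, again without overlap, at a log2 fold change of -0.31 ± 0.07 (adjusted p = 0.00054). Rps6, the small subunit protein phosphorylated by the S6 kinases, was at 4.15, 4.57, 3.73 and 4.89 CPM in DMSO and 3.43, 3.08, 3.47 and 2.31 CPM with BRD3308, at -0.49 ± 0.16 (adjusted p = 0.016). These values rest on a mean of 57.2 counts per library, and Rps6 had 15.6% unshared windows. Rps29, a small zinc-binding protein of the small subunit, fell by 0.38 ± 0.15 (adjusted p = 0.041). The call of Rps29 was lost in 8 of the alternative settings and that of Rps6 in 2.

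In WT-ERG cells the count of members that rose with BRD3308 rested on the libraries used. With all libraries 7 members rose and 10 fell, smaller shares than the 24.7% of all genes that rose and the 23.2% that fell. The median log2 fold change was 0.07 against 0.00 over all genes. Without the 2 replicate-4 libraries 42 rose and 10 fell, against 25.9% and 25.2% of all genes, with a median of 0.12, and all 7 members that had risen were among the 42. Leaving out replicate 4 of DMSO-treated WT-ERG cells alone gave 23 that rose, leaving out replicate 4 of DMSO-treated P199L-ERG cells alone gave 19, and leaving out replicate 1 of the latter group gave 12. The shares of all genes in these fits are not given here, so these counts alone do not show a change particular to the members.

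Rpl15 stood at 31.2, 27.8, 28.5 and 30.7 CPM in DMSO-treated and at 34.6, 35.4, 34.5 and 34.3 CPM in BRD3308-treated WT-ERG cells. The groups were apart, and the log2 fold change was 0.23 ± 0.05 (adjusted p = 0.00023). Rpl7 rose by 0.16 ± 0.04 (adjusted p = 0.00086) and Rpl17 by 0.26 ± 0.06 (adjusted p = 0.0013). The largest increase was that of Rpl3l, the paralog of Rpl3 used in muscle, at 0.77 ± 0.23 (adjusted p = 0.008). Its level was low, at 1.19, 1.33, 1.30 and 1.94 CPM in DMSO and 1.87, 2.22, 2.94 and 2.75 CPM with BRD3308. Here the groups overlapped, since replicate 4 of the DMSO group lay above the lowest treated library.

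The members that fell in WT-ERG cells were led by Rps19bp1, which was at 27.3, 28.3, 27.7 and 32.1 CPM in DMSO and at 21.4, 20.4, 23.6 and 22.1 CPM with BRD3308. This was a log2 fold change of -0.40 ± 0.07 (adjusted p = 1.9e-05) with no overlap. Rpl27, a large subunit protein found mutated in Diamond-Blackfan anemia, was at 40.0, 46.2, 44.9 and 47.8 CPM in DMSO and 35.5, 38.3, 37.1 and 37.8 CPM with BRD3308. It fell by 0.27 ± 0.06 (adjusted p = 0.00054), each treated library lying below each control. Rpl12, a protein at the base of the stalk, fell by 0.28 ± 0.08 (adjusted p = 0.0048). Others that fell were Rps23, Rpl30, Rpl28, Rps27l, Rpl7l1 and Rpl36al, and the calls of Rpl7l1, Rpl36al and Rps27l were lost in 8, 6 and 4 of the alternative settings.

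In P199L-ERG cells the count of members that rose rested on the libraries used. With all libraries 6 rose and 10 fell, against 24.4% and 24.1% of all genes, and the median log2 fold change was -0.04 against -0.01 over all genes. Without the 2 replicate-4 libraries 26 rose and 8 fell, against 24.8% and 24.1% of all genes, with a median of 0.07, and 28 of the 86 members changed sign. Leaving out replicate 4 of DMSO-treated P199L-ERG cells alone gave 20 that rose and 8 that fell, whereas leaving out its replicate 1 gave 3 and 23, and leaving out replicate 3 of the BRD3308-treated group gave 3 that rose. For these fits, too, the shares of all genes are not given.

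Rps14 shows how single libraries weighed. It was at 485, 531, 590.3 and 775 CPM in the DMSO libraries, replicates 1 to 4, and at 652, 647, 677 and 674 CPM with BRD3308. The first 3 control libraries lay below all treated libraries and the last above them all. The log2 fold change was 0.15 ± 0.08 (adjusted p = 0.13) with all libraries and 0.31 (adjusted p = 3.2e-06) without the 2.

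Rpl7 was at 401, 410.4, 425 and 384 CPM in DMSO and 437, 445, 463 and 460.2 CPM with BRD3308 in these cells. It rose by 0.16 ± 0.04 (adjusted p = 0.0015) without overlap, and replicate 4 was here the lowest control. Rpl15 was at 29.8, 32.5, 30.8 and 30.3 CPM in DMSO and 35.1, 35.6, 35.9 and 34.3 CPM with BRD3308, a log2 fold change of 0.19 ± 0.05 (adjusted p = 0.0017), also without overlap. Rpl9 rose by 0.15 ± 0.05 (adjusted p = 0.012), and Rpl3, a protein close to the catalytic center of the large subunit, by 0.12 ± 0.04 (adjusted p = 0.016).

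Among the 10 that fell, Rps19bp1 was at 27.7, 28.9, 29.0 and 34.2 CPM in DMSO and 22.3, 23.3, 23.5 and 21.9 CPM with BRD3308, with a log2 fold change of -0.39 ± 0.07 (adjusted p = 1.9e-05). Rpl36al, the intronless paralog of Rpl36a, was at 63.1, 65.6, 70.2 and 95.1 CPM in DMSO and 52.3, 57.0, 58.6 and 54.9 CPM with BRD3308. Its log2 fold change was -0.40 ± 0.09 (adjusted p = 0.00037), and -0.25 (adjusted p = 0.00062) without the 2 replicate-4 libraries. For both genes the groups were apart. Rpl27 fell by 0.27 ± 0.06 (adjusted p = 0.00041) and Rpl28 by 0.27 ± 0.07 (adjusted p = 0.0013), both of the large subunit.

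Over the 3 constructs with all libraries, Rpl15, Rpl17, Rpl3, Rpl7 and Rpl9 rose with BRD3308 in each and Rps19bp1 fell in each. No member rose in one construct and fell in another, and 45 of the 86 passed the test in none. These patterns were not counted over all genes, so they are not shown to be particular to the members. Rpl17 no longer passed in P199L-ERG cells without the 2 replicate-4 libraries, at 0.10 (adjusted p = 0.16). The call of Rpl3 was lost in 7 of the alternative settings in WT-ERG and in 4 in P199L-ERG cells, and that of Rpl9 in 3 in P199L-ERG cells. The 5 genes that rose are all of the large subunit, to which 49 of the 86 members belong. They had between 6.77% (Rpl9) and 51.7% (Rpl7) unshared windows.

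**Figure D3:**
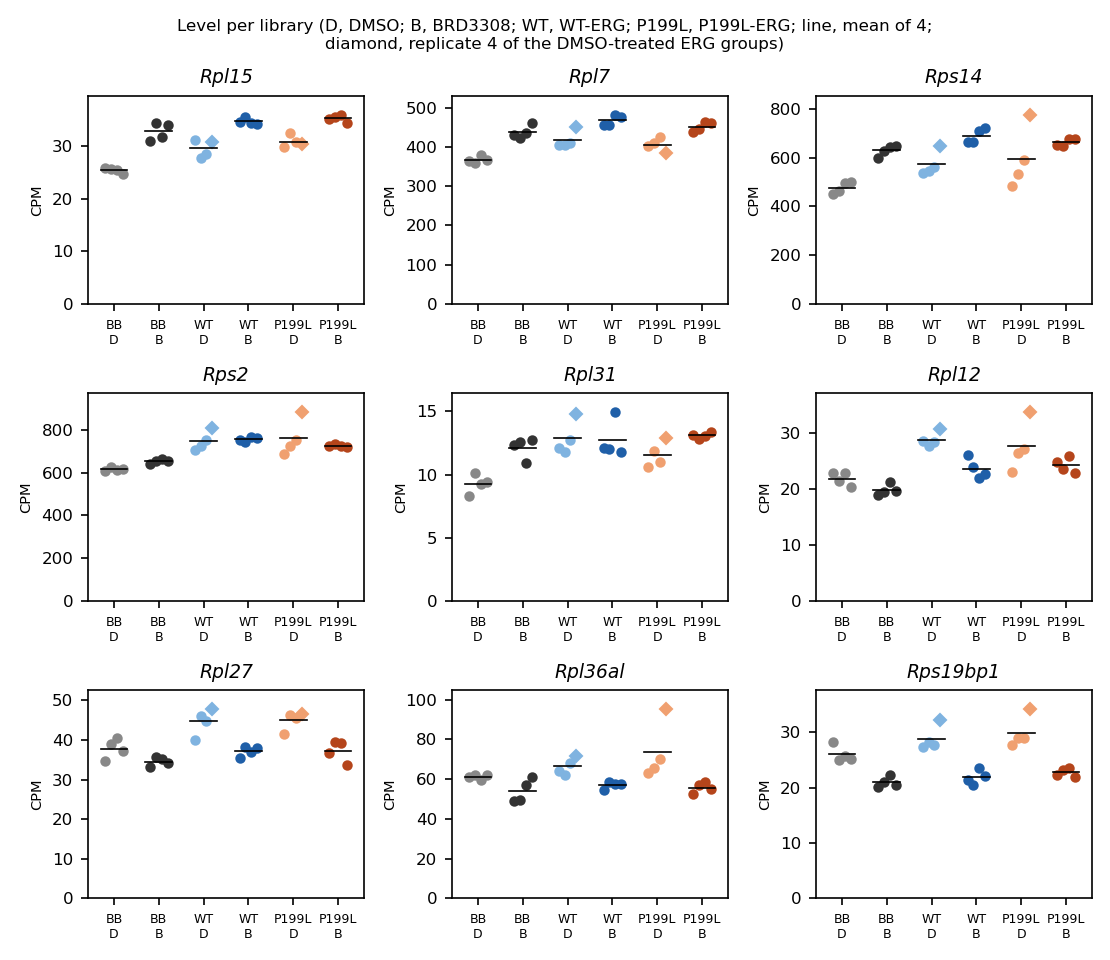
Level in CPM (linear axis from 0) of 9 members in each library, with the mean of 4 libraries as a line and diamonds for replicate 4 of the DMSO-treated ERG groups. Rpl15 and Rpl7 are higher and Rps19bp1 lower with BRD3308 in all 3 constructs, without overlap, while Rps14 in DMSO-treated P199L-ERG cells runs from 485 to 775 CPM.

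The response to BRD3308 was compared between constructs by the difference of the log2 fold changes. No member passed for WT-ERG against BB, P199L-ERG against BB or P199L-ERG against WT-ERG, with edgeR, limma-voom or DESeq2. Over all genes, 0.825% were higher and 0.903% lower for the first of these, 0.455% and 0.594% for the second, and 0.0231% each way for the third. At an unadjusted p under 0.05 edgeR gave 1 member higher and 3 lower, 0 and 27, and 0 and 1, in the same order. The median difference over the members was -0.08, -0.16 and -0.09, and without the 2 replicate-4 libraries it was -0.03, -0.08 and -0.05. In those 22 libraries again no member passed, where 1.32% and 1.35% of all genes were higher and lower for the first difference, 0.703% and 0.849% for the second, and 0.0459% and 0.0535% for the third. The smallest p values were those of Rpl31 for WT-ERG minus BB (-0.40, 95% interval -0.66 to -0.14, adjusted p = 0.14), of the copy Rps27rt for P199L-ERG minus BB (-1.29, interval -2.23 to -0.35, adjusted p = 0.214) and of Rpl41 for P199L-ERG minus WT-ERG (-0.31, interval -0.60 to -0.02, adjusted p = 0.795). Rps27rt averaged 10.4 counts per library. With the slope of each library on exon length as a covariate, 42 members were lower in P199L-ERG minus BB. That slope was computed from deviations from the group means in these same counts. The covariate therefore takes out spread within groups, and a higher count can follow from how it was made. With the replicate number as a block, 4 members were lower in P199L-ERG minus BB. In the 22 libraries with that block 3 were lower for the first difference, 1 higher and 19 lower for the second, and 1 higher and 3 lower for the third, so the counts of 0 depended on the fit. The shares of all genes at the unadjusted threshold, with the covariate and with the block are not given here. These counts therefore do not show a difference particular to the members.

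Between WT-ERG and BB cells in DMSO, 32 of the 86 members were higher with WT-ERG, 0 were lower and 54 did not pass, where 15.6% of all genes were higher and 14.1% lower, and the median log2 fold change was 0.17 against 0.01 over all genes. No member was lower at an unadjusted p under 0.05, nor by limma-voom or DESeq2. The large subunit had 19 of 49 members higher and the small subunit 12 of 32. Without the 2 replicate-4 libraries 37 members were higher, against 16.7% of all genes, and the median was 0.11, with 28 members called in both. The count was 15 without replicate 4 of DMSO-treated WT-ERG cells alone, 51 without replicate 4 of DMSO-treated P199L-ERG cells alone, and 16 and 21 without replicates 1 and 2 of DMSO-treated BB cells. The shares of all genes in these fits are not given here. Counts of 15 and 16 of 86 are not far above the 15.6% of all genes with all libraries, so the excess of members depended on single libraries.

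Rps2, a small subunit protein at the entry of the messenger RNA channel (ENSMUSG00000044533, GRCm38 chr17:24718116-24721929, plus strand), led the list. It was at 607, 628, 613 and 618 CPM in BB cells and 704, 725, 751 and 807 CPM in WT-ERG cells. The groups were well apart, and the log2 fold change was 0.28 ± 0.05 (adjusted p = 6.8e-05). Rpl31, a large subunit protein at the tunnel exit, was at 8.30, 10.1, 9.29 and 9.38 CPM in BB and 12.1, 11.8, 12.8 and 14.8 CPM in WT-ERG cells, at 0.47 ± 0.09 (adjusted p = 0.00022). Rpl12 was at 22.7, 21.4, 22.8 and 20.3 CPM in BB and 28.4, 27.7, 28.3 and 30.6 CPM in WT-ERG cells, at 0.39 ± 0.08 (adjusted p = 0.0004). Neither gene had overlapping groups. Rpl7 was higher by 0.18 ± 0.04 (adjusted p = 0.00055).

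In P199L-ERG against BB cells in DMSO, 53 of 86 members were higher, 0 lower and 33 did not pass, where 15.3% of all genes were higher and 12.9% lower. The median was 0.23 against 0.02 over all genes, 30 of 49 large and 21 of 32 small subunit members were higher, and no member was lower at an unadjusted p under 0.05 or with the other tools. Without the 2 replicate-4 libraries 41 members were higher, against 13.6% of all genes, and the median was 0.12. Leaving out replicate 4 of this group alone gave 30, and a fit of these 2 groups by themselves gave 17, both without the share of all genes beside them. WT-ERG and P199L-ERG were set against the same BB libraries, so these counts are not independent of each other.

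Rps2 was at 688, 722, 752 and 883 CPM in DMSO-treated P199L-ERG cells, all above the BB libraries, with a log2 fold change of 0.30 ± 0.05 (adjusted p = 2.8e-05). Without the 2 libraries it was 0.23 (adjusted p = 2.9e-07). Rpl15 was higher by 0.28 ± 0.05 (adjusted p = 0.00011) and Rpl27a, a large subunit protein, by 0.38 ± 0.08 (adjusted p = 0.0004). Rpl7l1, a relative of Rpl7 with 93.7% unshared windows, was higher by 0.17 ± 0.03 (adjusted p = 3.9e-05).

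P199L-ERG and WT-ERG cells in DMSO were not distinguished by any member. None was called, where 2.23% and 2.45% of all genes were higher and lower, and edgeR gave 1 member each way at an unadjusted p under 0.05, with 0 by limma-voom and DESeq2. The median was 0.05 and the values ran from -0.29 to 0.22. In the 22 libraries without the 2 replicate-4 libraries again none was called, against 2.2% and 2.29% of all genes, and the median was 0.02. In a fit with the length slope as covariate 12 members were higher and 1 lower, with the limits given above for that slope and its missing shares of all genes.

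**Figure D4:**
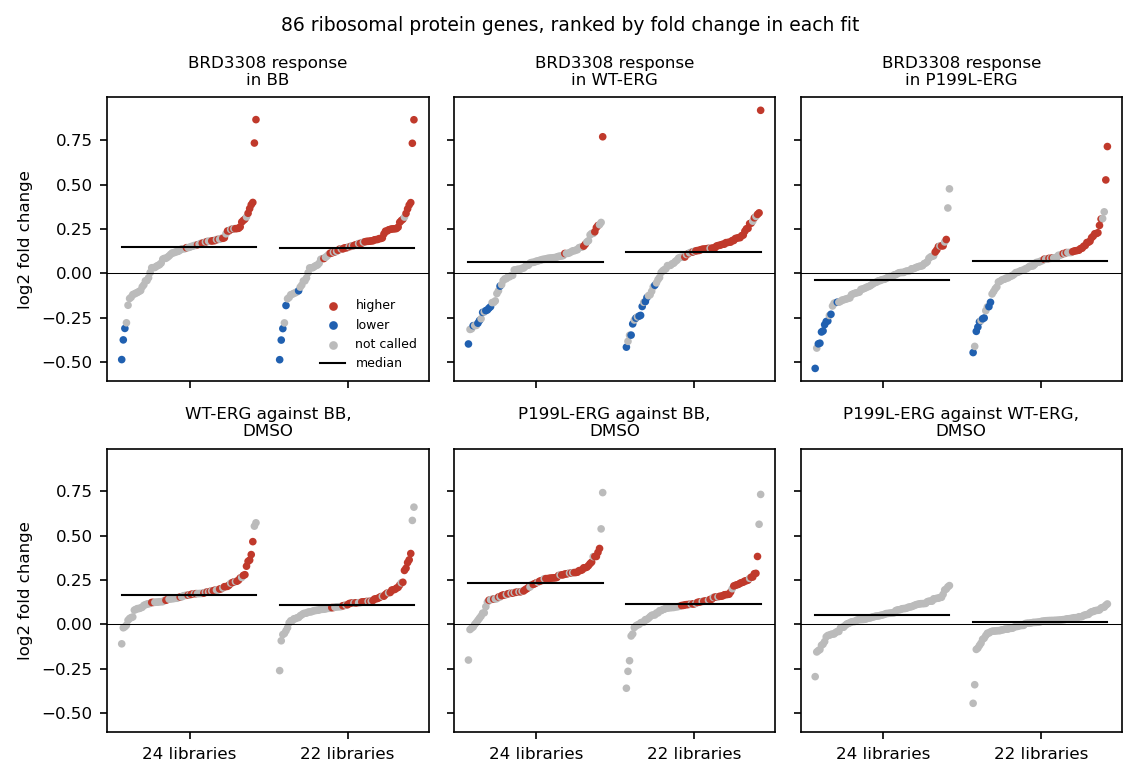
Log2 fold change of the 86 genes, ranked within each of 6 comparisons, from all 24 libraries (left) and from the 22 without replicate 4 of the DMSO-treated ERG groups (right), with called genes in red (higher) or blue (lower) and the median as a line. ERG constructs against BB cells show no blue points, and the BRD3308 response in P199L-ERG cells moves from a median of -0.04 to 0.07.

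The stalk protein gene Rplp0 was at 1187, 1193, 1215 and 1249 CPM in DMSO-treated BB cells, 1271, 1273, 1337 and 1445 CPM in WT-ERG cells and 1241, 1305, 1378 and 1578 CPM in P199L-ERG cells. Only the lowest P199L-ERG library reached the range of the BB libraries, and the log2 fold changes against BB were 0.14 ± 0.05 (adjusted p = 0.045) and 0.18 ± 0.05 (adjusted p = 0.0078). The first of these calls was lost in 16 of the alternative settings and the second in 1. Its partner Rplp1 was higher in P199L-ERG cells (0.26 ± 0.08, adjusted p = 0.013) and stood at 0.19 ± 0.08 (adjusted p = 0.06) in WT-ERG cells, and Rplp2 was called in none of the 9 comparisons with all libraries. Rpsa, which also encodes a laminin receptor, was higher in WT-ERG (0.17 ± 0.06, adjusted p = 0.022) and P199L-ERG cells (0.18 ± 0.06, adjusted p = 0.022), the latter 0.10 (adjusted p = 0.1) without the 2 replicate-4 libraries. Rps4x, the X-linked protein of the small subunit, was higher in both and rose with BRD3308 in BB cells (0.24). Rpl13a, known for silencing inflammatory messages outside the ribosome, and Rpl36a were higher in P199L-ERG cells, by 0.17 and 0.28, and without the 2 libraries Rpl13a no longer passed, at 0.09 (adjusted p = 0.077).

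Among the paralogs, Rpl22, an RNA-binding protein of the large subunit, was at 367, 375, 382 and 378 CPM in BB, 405, 422, 429 and 488 CPM in WT-ERG and 382, 406, 446 and 591 CPM in P199L-ERG cells in DMSO. It was higher by 0.22 ± 0.08 (adjusted p = 0.039) and 0.28 ± 0.08 (adjusted p = 0.008), calls that were lost in 7 and in 1 of the alternative settings. Its paralog Rpl22l1 stood at 21.6 to 23.5, 20.8 to 24.4 and 17.0 to 30.02 CPM in the same groups, which overlapped, with log2 fold changes of -0.02 (adjusted p = 0.92) and 0.06 (adjusted p = 0.68). Whether the paralogs differed was not tested. Rps27l, a p53-responsive paralog of Rps27, was higher in both ERG constructs and fell with BRD3308 by 0.19 ± 0.06 (adjusted p = 0.015) in WT-ERG and by 0.23 ± 0.06 (adjusted p = 0.0034) in P199L-ERG cells, whereas Rps27 passed in none of the 9 comparisons. With the 2 replicate-4 libraries left out, only the fall of Rps27l in P199L-ERG cells still passed (adjusted p = 0.005). Rpl10 and Rpl39 also passed in none with all libraries, and Rpl39 rose with BRD3308 in all 3 constructs once the 2 libraries were left out. Rpl39l and Rpl10l, known from the testis, had 0 counts in all 24 libraries. A single library at 0 allows up to 3 counts, and the 24 together allow fewer per library.

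Of the genes tied to Diamond-Blackfan anemia, Rps19 was at 231, 243, 244 and 243 CPM in DMSO-treated BB cells and 241, 252, 271 and 322 CPM in P199L-ERG cells. The groups overlapped, and it was higher by 0.17 ± 0.06 (adjusted p = 0.04), which became 0.08 (adjusted p = 0.12) without the 2 replicate-4 libraries. Rpl5 and Rpl11, which carry the 5S RNA and bind Mdm2, passed in none of the 9 comparisons with all libraries. Rps27a, made as a ubiquitin fusion, did not pass either. In all, 18 of the 86 members had no call in any comparison, and the matching share of all genes was not counted.

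Related lists are given by their counts, to be read against the shares of all genes, of which 24%, 24.7% and 24.4% rose and 22%, 23.2% and 24.1% fell with BRD3308 in BB, WT-ERG and P199L-ERG cells. Differences between lists were not tested. Of 32 ribosome biogenesis genes, which make and process ribosomal RNA, 1 rose and 24 fell in BB, 0 and 29 in WT-ERG, and 0 and 24 in P199L-ERG cells, with median log2 fold changes of -0.22, -0.31 and -0.22. Ubtf, the RNA polymerase I factor, fell by 0.54 ± 0.04 (adjusted p = 1.4e-12) in BB cells, and the processing factor Rrs1 fell by 0.49 ± 0.05 (adjusted p = 6.2e-09). In DMSO 25 of these 32 genes were higher in WT-ERG and 22 in P199L-ERG than in BB cells and 0 were lower, where 15.6% and 15.3% of all genes were higher. Dkc1, the pseudouridine synthase, was at 0.37 ± 0.04 (adjusted p = 2e-07) in WT-ERG. Of 78 mitochondrial ribosomal protein genes, 4 rose and 18 fell with BRD3308 in BB, 0 and 34 in WT-ERG, and 1 and 46 in P199L-ERG cells, led by Mrpl19 (-0.36 ± 0.04, adjusted p = 3.3e-08, in BB). The 18 that fell in BB cells are near the share of all genes. The mitochondrial genes were higher in WT-ERG (18) and P199L-ERG (40) than in BB cells, with none lower. Without the 2 replicate-4 libraries 7 of the mitochondrial genes rose and 28 fell with BRD3308 in BB cells, against 26.1% and 25.4% of all genes. In P199L-ERG cells 20 were then higher than in BB cells, against 13.6% of all genes.

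Of 18 further messages known for a TOP tract, 9 rose and 0 fell with BRD3308 in BB, 3 and 1 in WT-ERG, and 3 and 2 in P199L-ERG cells. In DMSO 13 and 14 were higher in WT-ERG and P199L-ERG than in BB cells, where 15.6% and 15.3% of all genes were. In WT-ERG cells 8 rose with BRD3308 without the 2 replicate-4 libraries, against 25.9% of all genes. Eef2, the elongation factor that moves the ribosome along, rose by 0.25 ± 0.03 (adjusted p = 2e-07) in BB, and Eef1g was higher by 0.45 ± 0.04 (adjusted p = 1.7e-09) in WT-ERG cells. Eef1d went the other way with BRD3308, by -0.26 ± 0.06 (adjusted p = 0.00032) in WT-ERG. Of the ribosome genes outside the rule, Rack1, a scaffold on the small subunit, rose in all 3 constructs, by 0.30 ± 0.04 (adjusted p = 2.7e-07) in BB, and Fau, made as a fusion to a ubiquitin-like protein, passed in no construct. Among 12 mTOR and TOP control genes 6, 7 and 3 fell and 0, 0 and 1 rose with BRD3308 in BB, WT-ERG and P199L-ERG cells, Larp1 by 0.22 ± 0.05 (adjusted p = 0.00033) in BB. Of 8 S6 kinase genes, which include Rps6kb1 and Rps6kb2 of the mTOR list, 3, 3 and 2 fell and 0 rose, led by Rps6ka3 (-0.32 ± 0.05, adjusted p = 1.5e-06, in BB). Against BB cells in DMSO, the mTOR list had 3 genes higher and 2 lower in WT-ERG and 2 and 3 in P199L-ERG, and the S6 kinases 2 and 1, and 1 and 3.

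**Figure D5:**
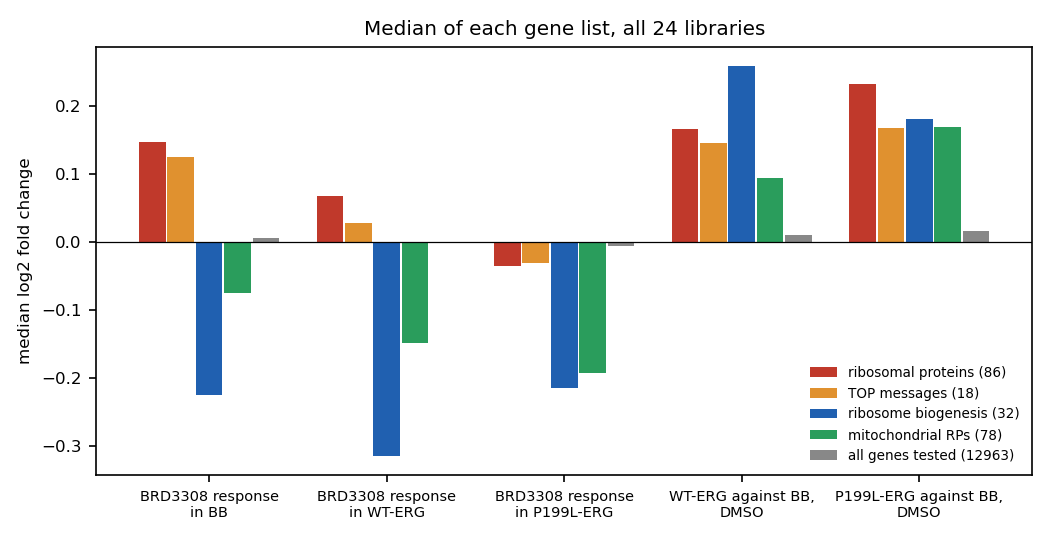
Median log2 fold change of the ribosomal protein genes and 3 related lists beside all genes tested, in 5 comparisons with all 24 libraries. With BRD3308 the ribosome biogenesis median lies at -0.22, -0.31 and -0.22 while that of the ribosomal proteins lies at 0.15, 0.07 and -0.04, and all 4 lists lie above 0 for ERG constructs against BB.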

How the data were processed

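RNA of 24 libraries, 4 in each of 6 groups taken from the sample titles, was sequenced. The deposited values are raw read counts per gene. The authors discarded reads under 30 bp and aligned the rest with STAR to GRCm38, and the submitters' processing notes name cutadapt, STAR, HTSeq and DESeq2. Versions, annotation, strand setting and the treatment of reads with several matches are not stated in the labels or methods.

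Symbols, biotypes and exon lengths came from GENCODE M21, and promoter windows from RefSeq (GRCm38.p6). Counts were filtered with filterByExpr, scaled by TMM and tested with edgeR's quasi-likelihood test (edgeR 4.0.16, R 4.3.3) in 1 fit of all 24 libraries, with Benjamini-Hochberg adjustment over 12963 genes. A gene was called at an adjusted p under 0.05. CPM are counts per 1000000 of the TMM-scaled library total over the genes tested. The text calls a gene higher, or says that it rose, only when it was called. The members and the lists were chosen with earlier results of these data known. Genes named were the 4 members of smallest p in each direction of a comparison, a list of stalk proteins, paralogs and disease genes, and the 3 highest and lowest per length. Of the other lists only some of the leading genes are named, and a few genes that the rule names are not reported here.

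Alternatives were other normalizations, filters, thresholds and tests (limma-voom 3.58.1, DESeq2 1.42.0), fits of the compared groups alone, a replicate block, a length covariate, and leaving out each library, or both replicate-4 libraries of the DMSO-treated ERG groups. The length covariate was the slope, on log2 exon length, of a library's deviations from its group mean. It came from the same counts as those tested, so higher counts with it are no separate evidence. The edgeR script was tested on simulated data. P-values rest on a spread between libraries of the same group that was estimated over all 6 groups together. They do not measure the spread of the compared groups alone, and counting error sets the limit for members with few reads.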

Additional observations from a re-analysis of the deposited data

Results flagged for a closer look

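Among the 18 members with every library examined one by one, 4 of 108 sets of 4 libraries had 1 library far from the other 3 by Dixon's criterion, where chance gives about 1 in 20. Rpl31 was at 14.96 CPM in replicate 3 of BRD3308-treated WT-ERG cells against 11.8 to 12.1 in the other 3. Rpl3l was at 2.35 CPM in replicate 4 of DMSO-treated P199L-ERG cells against 1.25 to 1.38. Rpl7 was at 449.6 CPM in replicate 4 of DMSO-treated WT-ERG cells against 404 to 409. Rps19 was at 231 CPM in replicate 1 of DMSO-treated BB cells against 243 to 244.

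Over all 86 members 26 of 516 sets had such a library, or 5.04%, close to the 5% that chance gives. Of these, 6 fell on replicate 4 of DMSO-treated P199L-ERG cells and 5 on replicate 4 of DMSO-treated WT-ERG cells.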

How the results depend on the processing

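Counts of members kept within 1.5 times the values in the report under edgeR's RLE scaling, library size alone, limma-voom and DESeq2, and no count went from higher to lower. For BRD3308 in BB cells, the members that rose (27) numbered 44 with no filter, 48 in a fit of the groups alone, 17 at an adjusted p under 0.01, 43 with a replicate block, 51 with the length covariate and 47 without both replicate-4 libraries. Those that fell (3) numbered 1 with over 30 reads in every library, 5 in the groups alone, 1 at 0.01, 8 with the block, 9 with the covariate and 5 without both libraries. In WT-ERG cells those that rose (7) numbered 22, 18 with over 30 reads, 19 in the groups alone, 25 with the block, 36 with the covariate and 42 without both libraries, and those that fell (10) 6 at 0.01. In P199L-ERG cells those that rose (6) numbered 3 in the groups alone, 2 at 0.01, 11 with the covariate and 26 without both libraries, and those that fell (10) 25 with the covariate. For WT-ERG against BB the 32 higher members became 15 at 0.01, 54 with the block and 65 with the covariate, and for P199L-ERG against BB the 53 became 17 in the groups alone and 30 at 0.01. Between P199L-ERG and WT-ERG, 4 were higher and 1 lower with no filter, 12 and 1 with the covariate, and 2 lower with the block. Lower differences in response numbered 2 for WT-ERG minus BB with the covariate, 14 with no filter, 4 with the block and 42 with the covariate for P199L-ERG minus BB, and 1 and 4 with no filter and the covariate for P199L-ERG minus WT-ERG. The replicate block without both libraries, chosen after seeing the data, gave 55 and 11 for BB, 50 higher for WT-ERG, 36 higher for P199L-ERG, 54 higher for WT-ERG against BB, 3 higher and 1 lower for P199L-ERG against WT-ERG, and for the differences 3 lower, 1 higher and 19 lower, and 1 higher and 3 lower. The causes were not tested. The shares of all genes called under these settings are not set beside the counts in this section. A changed count alone therefore does not show a change particular to the members.

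With single libraries left out, the members that rose with BRD3308 numbered 21 to 47 in BB, 5 to 23 in WT-ERG and 3 to 20 in P199L-ERG cells, and those that fell 2 to 6, 7 to 12 and 8 to 23. The BB counts of 47 and 6 were those without replicate 4 of DMSO-treated P199L-ERG cells. Higher members numbered 15 to 51 for WT-ERG against BB and 30 to 63 for P199L-ERG against BB, and lower members 0 to 1 for P199L-ERG against WT-ERG (1 without replicate 3 of DMSO-treated P199L-ERG cells) and 0 to 1 for the WT-ERG minus BB response (1 without replicate 3 of BRD3308-treated WT-ERG cells). The replicate numbers were not taken as a pairing in the main fit, since 29 of 60 same-numbered pairs, and not all, had a correlation of deviations over 0.1 (range -0.005 to 0.295). The cut of 0.1 was a choice, and pairs with different numbers ran from -0.270 to 0.111. That some pairs lay under the cut does not show that the replicates were unpaired, so the main counts may leave out a real pairing. The counts with a replicate block are those given above. Among the 4 libraries of another group, a library correlated best with its own number in 84 of 120 cases. This is a hint from the data, not the design, that same-numbered libraries share something. Depth limited members with few reads, such as Rps27rt and Rpl23a.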

Other observations

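Without both replicate-4 libraries, the lists beside the ribosomal proteins gave these counts. Of all genes, 26.1%, 25.9% and 24.8% then rose with BRD3308 in BB, WT-ERG and P199L-ERG cells, and 25.4%, 25.2% and 24.1% fell. With BRD3308 the ribosome biogenesis genes then numbered 1 that rose and 26 that fell in BB, 0 and 29 in WT-ERG, and 1 and 24 in P199L-ERG cells. The mitochondrial ribosomal protein genes numbered 3 and 32 in WT-ERG and 4 and 33 in P199L-ERG cells. In DMSO 28 of the 32 biogenesis genes were higher in WT-ERG and 21 in P199L-ERG than in BB cells, where 16.7% and 13.6% of all genes were. In P199L-ERG against WT-ERG cells 8 were lower, and 3 with all libraries, where 2.29% and 2.45% of all genes were lower. Mitochondrial ribosomal protein genes higher than in BB cells numbered 16 in WT-ERG cells, against 18 with all libraries.

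Genes annotated as ribosomal protein pseudogenes, 298 in the table and 58 of them tested, held 0.0166% to 0.0239% of the counts of a library.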
